A study of Mus musculus with 12 samples.

Results

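The integrin beta chains are the 8 genes Itgb1 to Itgb8, taken by gene symbol from a Runx1b DamID-seq table that lists 5867 genes with regions. The study concerns haemogenic endothelium, the endothelium from which blood cells emerge. Its libraries came from 2 sorted populations, given below, and the table does not tell from which of them a region comes. Of the 8 genes, 5 had a row (Itgb1, Itgb3, Itgb4, Itgb5 and Itgb6) and 3 had none (Itgb2, Itgb7 and Itgb8). The family was chosen with earlier results of these data known, so its count of genes with a region is a description. In DamID a protein is joined to the bacterial methylase Dam, which marks adenines in GATC near the places where the protein sits, and the marked fragments are sequenced. The study compared Runx1b::Dam libraries, from the mouse embryonic stem cell line iRunx1b::Damko, with Dam control libraries, from the line iDamko, which has Dam without Runx1b. Both lines are of strain 129 and carry runx1-/-, so the fusion is set against free Dam in cells that all lack functional Runx1 of their own. Each line gave 6 libraries, of which 3 are labelled as biological replicates and 3 as technical replicates. The technical libraries were all sorted with magnetic beads (MACS), whereas the libraries they repeat were sorted by flow cytometry (FACS). They are thus not repeats of the same sort. FLK1+ cells came from embryoid bodies of the same day for every library and then spent 2 days in blast culture. After this culture, 2 libraries per line were made from cKIT+ TIE2+ CD41- cells and 4 from FLK1+ cells.

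The table holds 1 read count per gene, summed over the regions assigned to that gene, and the same count per kilobase of those regions. It holds no value per library, so no value below has a replicate error, no library depth is known, and Runx1b::Dam cannot be set against Dam control for a single gene. All comparisons are therefore descriptions of this table without a test. Reads per kilobase (reads per kb) are not scaled to library size and are no enrichment over Dam. Whether the counted reads come from Runx1b::Dam libraries, Dam control libraries or both is not stated. A high signal below is therefore a high read density and no measure of Runx1b binding. The regions are in the mm9 build. A gene of the table had a median of 1883 reads and of 683 reads per kb, with quartiles of 515 and 918. Intervals are exact 95% Poisson intervals of the read count, which treat each read as a separate observation. PCR copies of a molecule are not separate observations, so the intervals can be too narrow. They do not cover replicate spread, and those of ratios treat the median as fixed. The table holds no expression, so the cells' identity was not checked against markers.

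Integrins are receptors made of an alpha and a beta chain that tie the extracellular matrix or other cells to the actin cytoskeleton. The beta chain carries the short cytoplasmic tail to which talin and kindlins bind when an integrin is switched on, and which recruits the kinases of focal adhesions. Itgb1 pairs with most matrix-binding alpha chains, Itgb3, Itgb5, Itgb6 and Itgb8 pair with Itgav, Itgb4 pairs with Itga6 in hemidesmosomes, and Itgb2 and Itgb7 belong to leukocytes. Vessels and the blood cells that leave them use different members of the family, among them Itgb1 in endothelium and Itgb2 in white cells. The series title names a cell adhesion and migration programme, to which this family belongs.

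Promoter sequences are shown for 4 members because DamID can mark only GATC, and because Runx proteins bind a core that reads TGTGGT or TGCGGT. They come from RefSeq, build GRCm38.p6, which is another build than that of the regions, so whether a region covers a promoter was not analysed here. The table of promoters had 5 of the 8 members, with 6 starts, Itgb6 having a second start, and each sequence runs from 250 bases before the start to 50 after it. The 4 shown are Itgb1 (chr8:128685404-128685703, plus strand), Itgb5 (chr16:33829415-33829714, plus strand), the outer start of Itgb6 (chr2:60722554-60722853, minus strand) and, as a member without a region, Itgb7 (chr15:102231886-102232185, minus strand). Each is written 5′ to 3′ on the gene's strand, with every GATC in capitals.
Itgb1: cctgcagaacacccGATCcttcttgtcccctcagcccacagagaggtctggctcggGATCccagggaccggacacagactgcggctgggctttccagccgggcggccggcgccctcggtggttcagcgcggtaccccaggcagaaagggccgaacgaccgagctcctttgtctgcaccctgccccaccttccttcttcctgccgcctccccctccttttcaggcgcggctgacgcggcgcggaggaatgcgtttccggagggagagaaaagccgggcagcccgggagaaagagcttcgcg
Itgb5: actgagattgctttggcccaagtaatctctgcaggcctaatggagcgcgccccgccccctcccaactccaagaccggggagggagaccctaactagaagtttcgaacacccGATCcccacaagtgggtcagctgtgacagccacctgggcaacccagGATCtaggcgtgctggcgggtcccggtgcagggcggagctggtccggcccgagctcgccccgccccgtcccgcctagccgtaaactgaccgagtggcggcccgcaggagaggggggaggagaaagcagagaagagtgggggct
Itgb6: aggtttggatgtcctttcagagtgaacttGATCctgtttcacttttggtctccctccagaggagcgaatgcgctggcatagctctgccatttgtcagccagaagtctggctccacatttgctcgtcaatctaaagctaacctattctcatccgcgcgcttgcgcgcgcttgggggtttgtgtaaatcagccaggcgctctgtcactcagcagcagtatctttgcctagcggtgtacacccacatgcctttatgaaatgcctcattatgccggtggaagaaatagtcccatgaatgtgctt
Itgb7: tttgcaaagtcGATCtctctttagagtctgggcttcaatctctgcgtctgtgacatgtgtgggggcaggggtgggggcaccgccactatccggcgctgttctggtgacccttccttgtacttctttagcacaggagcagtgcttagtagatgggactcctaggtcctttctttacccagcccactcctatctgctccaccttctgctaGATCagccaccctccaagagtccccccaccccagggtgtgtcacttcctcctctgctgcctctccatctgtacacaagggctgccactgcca

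GATC, which reads the same on both strands, stood 2 times in the Itgb1 promoter, at 236 and 194 bases before the start. It stood 2 times in the Itgb5 promoter, at 139 and 93 bases before the start, and once in the Itgb6 promoter, at 221 bases. The Itgb7 promoter, of a gene without a region, also held 2, at 239 and 42 bases before the start, whereas the second Itgb6 start and the Itgb8 promoter held 0. Over all 32851 promoters of the same length, 48.0% held at least 1 GATC, so its presence did not separate members with a region from Itgb7. The core TGTGGT or TGCGGT, searched on both strands with no overlap with GATC possible, was in 0 of the 6 member promoters, against 22.4% of all promoters. This says only that these letters were not in these windows of 300 bases.

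Of the 8 beta chain genes, 5 (62.5%) had a region, against 4572 of 21887 protein-coding genes of the RefSeq table (20.9%, exact Clopper-Pearson interval 20.4% to 21.4%) and 22.1% of those on the chromosomes that carry the 8 genes. The deposited table lists 4771 protein-coding genes, more than the 4572 matched to RefSeq. A RefSeq gene listed under an unmatched name counts here as without a region, which the interval does not cover. The 5 beta chain genes held 11 regions with 18421 reads. None of the 11 regions was assigned to any other gene, so 0 of the 5 genes shared a region. Of the 5867 listed genes 1276 (21.7%) did, and 0 among so few genes is close to that share. Itgb5 and Itgb6 had 4 regions each, and Itgb1, Itgb3 and Itgb4 had 1 each. Among protein-coding genes 6.40% had 2 or more regions and 1.29% had 4 or more. Long genes had regions more often: when genes were put into 10 classes by length, Itgb5 and Itgb6 fell into the longest, where 45.2% of genes had a region and 18.8% of those with one had 4 or more. Itgb3 and Itgb8 fell into the ninth class, where 33.1% of genes had one, so the member with a region and the member without came from the same class. Itgb1 was in a class with 25.5%, and Itgb4 and Itgb2 were together in a class with 21.1%. The shortest member, Itgb7, was in a class with 19.7%.

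By reads per kb the order was Itgb1, Itgb4, Itgb3, Itgb5 and Itgb6, from 1452 to 626. Only Itgb5 and Itgb6 were neighbours in this order whose counting intervals overlapped. By reads the order differed, with 6776 at Itgb5 and 6139 at Itgb6 ahead of 2252 at Itgb1, 1709 at Itgb3 and 1545 at Itgb4. The 2 genes with 4 regions thus had the most reads and the fewest reads per kb. Against the other genes of their own chromosome, Itgb1 and Itgb4 were above the median, and Itgb3 and Itgb6 were below it. Itgb5 was at the median within its Poisson interval.

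**Figure D1:**
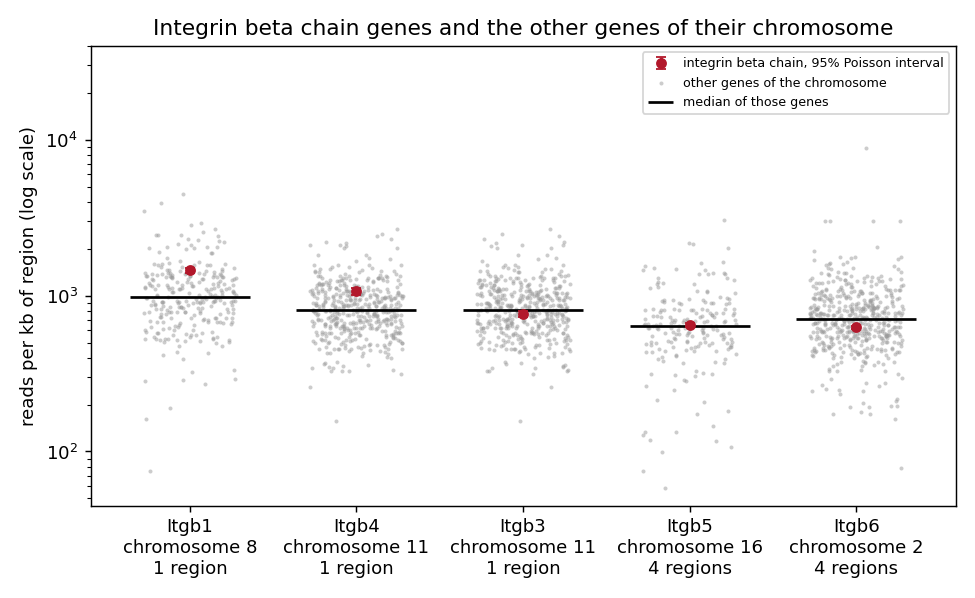
Reads per kb of region on a log axis for the 5 integrin beta chain genes with a region (red, with 95% Poisson intervals, mostly smaller than the point) and for each other listed gene of the same chromosome (grey, with the median as a black bar). Itgb1 at 1452 and Itgb4 at 1065 stand above the medians of 982 and 809.7, while Itgb3, Itgb5 and Itgb6 stand near theirs.

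Itgb1, which encodes the beta chain of the fibronectin, laminin and collagen receptors, had the highest signal of the family. Its gene, ENSMUSG00000025809, had a single region at chr8:131207748-131209298, of 1551 bp, with 2252 reads (2159.9 to 2347). This gave 1452 reads per kb (1393 to 1513). The median of the other 269 genes of chromosome 8 was 982 reads per kb, with quartiles of 716 and 1330.5. Itgb1 was 1.48 times that median (1.42 to 1.54), and 84.0% of these genes were lower. In the table as a whole 94.9% of genes were lower, a higher standing, since chromosome 8 had a higher median than the table. Its read count, in contrast, was 0.699 times the chromosome's median of 3223, with a region of 1551 bp against a median length of 2351 bp for the other regions of the chromosome.

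The region of Itgb1 was as short as any on its chromosome. The shortest region of chromosome 8 was 1551 bp, a length shared by 18 of its 418 regions (4.31%), and the Itgb1 region was one of them. The region of Itgb4 was likewise at the shortest length of chromosome 11, 1451 bp, with 28 of 580 regions (4.83%), and 1 of the 4 regions of Itgb6 was at that of chromosome 2, 1401 bp, with 33 of 675 (4.89%). The shortest length differed between the 21 chromosomes, from 351 to 1551 bp, and that of chromosome 8 was the highest. In all, 3 of the 11 regions of the family stood at such a limit. How regions were called, and whether a least length was set, is not stated in the labels or the table.

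Among genes of chromosome 8 with a single region within 200 bp of the same length, a comparison chosen after the data were seen, Itgb1 had more reads per kb than 35 of 38. The median of these genes was 717 reads per kb, and Itgb1 was 2.02 times that median. In the comparison with all genes of the chromosome it was 1.48 times the median. None of the genes of like length had a shorter region, since that of Itgb1 was at the chromosome's shortest length. Itgb4 in the same comparison had more than 41 of 59 genes of chromosome 11 (median 757, ratio 1.41), and Itgb3 more than 39 of 89 (median 794, ratio 0.956).

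**Figure D2:**
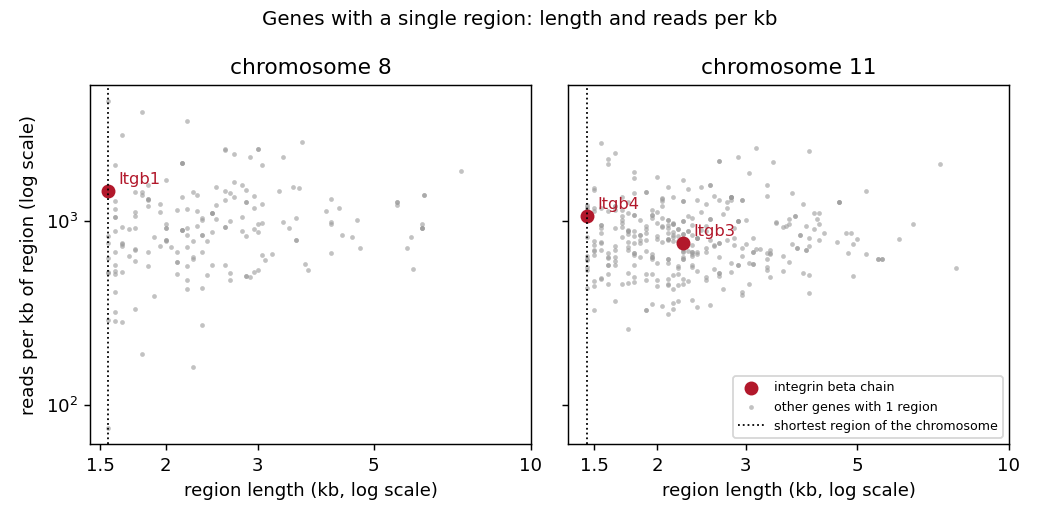
Region length against reads per kb, both on log axes, for genes with 1 region on chromosome 8 (left) and chromosome 11 (right), with integrin beta chains in red and the shortest region of the chromosome as a dotted line. Itgb1 and Itgb4 lie on the dotted line in the upper part of the points there, and Itgb3 lies in the middle of its chromosome in both measures.

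Itgb1 also lay at the end of the listed part of its chromosome. No region of chromosome 8 had a higher coordinate, and the next region on the other side belonged to Nrp1, the neuropilin gene, at a distance of 231 kb. The median gap between neighbouring regions of chromosome 8 was 51.7 kb. Nrp1 had 1334 reads per kb over 2 regions. The genes nearest to Itgb1 in reads per kb on the chromosome, the measure of likeness used here with 1 value per gene, were Vps36, a sorting factor of endosomes, at 1456, and C630050I24Rik at 1446.

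Itgb4, the beta chain of hemidesmosomes, whose long tail binds plectin and intermediate filaments, had the second highest signal. Its gene, ENSMUSG00000020758, had 1 region at chr11:115866935-115868385, of 1451 bp, with 1545 reads (1469 to 1624). At 1065 reads per kb (1012 to 1119) it was 1.31 times the median of the other 453 genes of chromosome 11 (1.25 to 1.38), which was 809.7, and above 77.0% of them. Its read count was only 0.724 times the chromosome's median of 2133. The next region lay 3.55 kb away and belonged to Galk1, a galactokinase gene, with 442 reads per kb, and on the other side the next was 171 kb away, at the polarity gene Llgl2. Galk1 is also the next gene of the RefSeq table, and this was the closest region of another gene to any of the 5 members. The nearest genes in reads per kb were Myocd, a co-activator of smooth muscle genes, at 1068, and Hes7, a clock gene of somites, at 1065, whose region was shared with another gene.

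Itgb3, the beta chain of the platelet fibrinogen receptor and, with Itgav, of a vitronectin receptor of vessels, had 1 region of ordinary length and signal. Its gene, ENSMUSG00000020689, had the region chr11:104485385-104487635, of 2251 bp, with 1709 reads (1629 to 1792). Its length equalled the median length of the regions of chromosome 11. Its 759 reads per kb (724 to 796) were 0.934 times the chromosome's median (0.890 to 0.979), with 43.3% of genes lower. Against all genes of the table it was 1.11 times the median, so it is below or above the middle by which genes it is set against. The neighbouring regions lay far off, 260 kb away at 1700081L11Rik and 667 kb away at Mrc2, a collagen-binding receptor, against a median gap of 50.3 kb. Itgb3 and Itgb4 lie on the same chromosome and can be set side by side. Itgb4 had 1065 reads per kb and Itgb3 759, with intervals that do not overlap. By read count the order was the reverse, 1709 at Itgb3 and 1545 at Itgb4, over regions of 2251 and 1451 bp. Those intervals do not overlap either. The nearest in reads per kb to Itgb3 were Spnb2, a spectrin beta chain with 1 of 2 regions shared with another gene, at 761, and Tex19.2 at 759.

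Itgb5, which with Itgav forms a vitronectin receptor, had 4 regions and the most reads of the family. The regions of its gene, ENSMUSG00000022817, were chr16:33877514-33881064 of 3551 bp, chr16:33883214-33884714 of 1501 bp, chr16:33891214-33894014 of 2801 bp and chr16:33940764-33943364 of 2601 bp. The first 3 lay within 16.5 kb of each other, with gaps of 2.15 and 6.50 kb, and the last followed after 46.7 kb. Together they covered 15.9% of a span of 65.9 kb, inside which no other gene had a region. The median gap between regions of chromosome 16 was 67.8 kb. The table gives 1 sum for the 4 regions, 6776 reads (6616 to 6939), so their own counts are unknown.

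At 648 reads per kb (633 to 664) Itgb5 was 1.02 times the median of the other 196 genes of chromosome 16 (0.992 to 1.04), which was 638, and above 51.5% of them. By reads it was 3.80 times the chromosome's median of 1784 and above 90.3% of genes. Of the other genes of chromosome 16, 18 (9.18%) had 4 or more regions, and Itgb5 had more reads per kb than 5 of these 18, whose median was 761. The nearest in reads per kb were the phosphatase gene Ppm1f at 649 and the sialyltransferase gene St3gal6 at 647. The next regions belonged to Muc13, a mucin, together with Gm15657, 82.0 kb away on one side, and to Kalrn, the kalirin gene with 7 regions, 58.3 kb away on the other.

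Itgb6, which with Itgav binds and activates latent TGF-beta and is best known from epithelia, resembled Itgb5 in layout. The regions of its gene, ENSMUSG00000026971, were chr2:60477174-60479124 of 1951 bp, chr2:60535524-60538124 of 2601 bp, chr2:60540824-60542224 of 1401 bp and chr2:60548824-60552674 of 3851 bp. Here a single region came first by coordinate, then a gap of 56.4 kb, then 3 regions within 17.2 kb, separated by 2.70 and 6.60 kb. They covered 13.0% of a span of 75.5 kb, again with no region of another gene inside. The longest was longer than 89.4% of the other regions of chromosome 2, and the shortest was at the chromosome's lower limit.

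The 4 regions of Itgb6 held 6139 reads (5986 to 6295), or 626 reads per kb (611 to 642). This was 0.885 times the median of the other 503 genes of chromosome 2 (0.863 to 0.907), which was 708, with 39.0% of genes lower. By reads Itgb6 was 3.11 times the chromosome's median of 1977. Among the 23 other genes of chromosome 2 with 4 or more regions, whose median was 955 reads per kb, only 2 were lower. Itgb6 thus had many regions and a low signal for its length among such genes. The nearest in reads per kb were the long intergenic RNA Gm16898 at 628 and the nuclear receptor gene Nr6a1 at 624, both with a region shared with another gene. The next regions belonged to Rbms1, an RNA-binding protein gene with 8 regions, 92.3 kb away, and to Baz2b, a chromatin reader gene, 498 kb away.

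**Figure D3:**
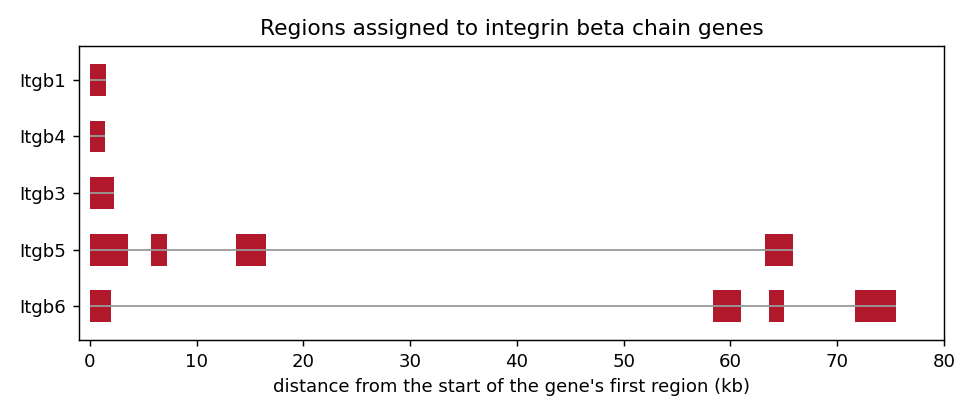
Regions assigned to each integrin beta chain gene (red boxes, to scale) by distance in kb from the start of the first region, in order of coordinate and not of transcription. Itgb5 and Itgb6 each show 3 regions within 16.5 and 17.2 kb and 1 more at 46.7 and 56.4 kb from that group, while Itgb1, Itgb4 and Itgb3 show 1 region each.

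Itgb2, Itgb7 and Itgb8 had no row under their symbol or any synonym in the RefSeq table. Itgb2 is the shared beta chain of the leukocyte integrins, which hold white cells to vessel walls. Itgb7 with Itga4 guides lymphocytes to the gut, and with Itgae it binds E-cadherin. Itgb8 with Itgav activates TGF-beta and is needed in mice for vessels of the brain. The absence of a row says that no region was assigned to these genes, and how far the libraries could have detected one is unknown. Genes next to them did have regions. Of the 3 protein-coding genes on each side of Itgb2 in the RefSeq table, 2 had one, Fam207a (672 reads per kb) and Adarb1 (636 over 5 regions). Beside Itgb7 it was 1 of 6, Soat2 at 1022, and beside Itgb8 it was 1 of the 5 genes available, Sp4 at 450. In all it was 11 of 30 neighbours (36.7%) beside the members with a region and 4 of 17 (23.5%) beside those without, against 20.9% of protein-coding genes, and the difference was not tested. These neighbours were named after their values were seen. The shares of protein-coding genes with a region on the chromosomes of the members without one were 23.1% on chromosome 10 for Itgb2, 25.0% on chromosome 15 for Itgb7 and 27.1% on chromosome 12 for Itgb8. On the chromosomes of the other members they ran from 19.4% to 24.0%. Whether the chromosome bears on the absence of a row was not tested.

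The beta chains were next set beside the alpha chains they pair with. Of the 12 alpha chains that pair with Itgb1, 8 had a region, against 20.9% of all protein-coding genes and 31.9% as the mean over the length classes of these 12. Among them were Itga5, of the fibronectin receptor, with 1212 reads per kb, Itga3 with 974 and Itgav with 961. Of the 4 alpha chains that pair with Itgb2 (Itgad, Itgal, Itgam and Itgax), 0 had one. The mean share over their length classes was 22.9%, at which 0 among so few genes is close to the background. Itgb3 had both partners listed, Itga2b at 533 reads per kb and Itgav. The single partner of Itgb4, Itga6, had 1 region at 514 reads per kb, and that of Itgb5, Itgb6 and Itgb8, Itgav, had 3 regions, of which 2 were shared with the gene models Dnmt3l-ps1 and Gm13684. Itgb8 thus had no region while its partner did, and of the partners of Itgb7, Itgae (669 reads per kb) had a region and Itga4 had none. Several beta chains share Itgav, so these counts are not independent.

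The 5 of 8 beta chains with a region had a median of 759 reads per kb, against 696 over the 10 of 18 alpha chains with a region and 683 over all genes of the table. The beta chain median is the value of Itgb3, which was 0.934 times the median of its chromosome. Above the median of their own chromosome were 3 of the 5 beta chains and 5 of the 10 alpha chains. As a mean over their length classes, 30.5% of genes had a region for the beta chains and 28.8% for the alpha chains. These lists were chosen with results of these data known, and no test was made on them. Itga1, a collagen-binding chain, completed the highest 4 alpha chains with 799.6 reads per kb. Of the 28 proteins of beta tails and focal adhesions, 20 had a region (71.4%, against 31.5% as the mean over their length classes), with a median of 826 reads per kb. They included Ilk, the integrin-linked kinase, at 2273 with its region shared with Taf10, the focal adhesion kinase Ptk2 at 1482 and Tln1, the talin that binds beta tails, at 1289. Itgb1bp1, whose protein binds the tail of Itgb1, had none, and neither did the other 5 genes named after a beta chain that encode none (Itgb1bp2, Itgb1bp3, Itgb2l, Itgb3bp and Itgbl1). The mean share over the length classes of the 5 of these 6 genes with a length was 27.1%, at which 0 among so few genes is close to the background. Of the 7 hemidesmosome genes that work with Itgb4, 6 had a region (against 31.4% over their length classes), with a median of 747 reads per kb. They included Plec, the plectin gene, at 1544 over 5 regions of which 1 was shared with U6, the tetraspanin gene Cd151 at 818 and the laminin chain Lama3 at 717. Of the 31 ligand genes 17 had a region (54.8%, against 27.2% over the length classes of the 30 with a length), with a median of 665 reads per kb, led by the matricellular gene Cyr61 at 1573, with its region shared with Gm17501, the basement membrane collagens Col4a2 at 1570 and Col4a1 at 1379.5, and Icam2, a ligand of Itgb2 integrins, at 1489.8. In reads per kb Itgb1, at 1452, stood above Itga5, the highest alpha chain, at 1212, but as a ratio to the median of its chromosome it stood below, with 1.48 at Itgb1 and 1.70 at Itga5.

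**Figure D4:**
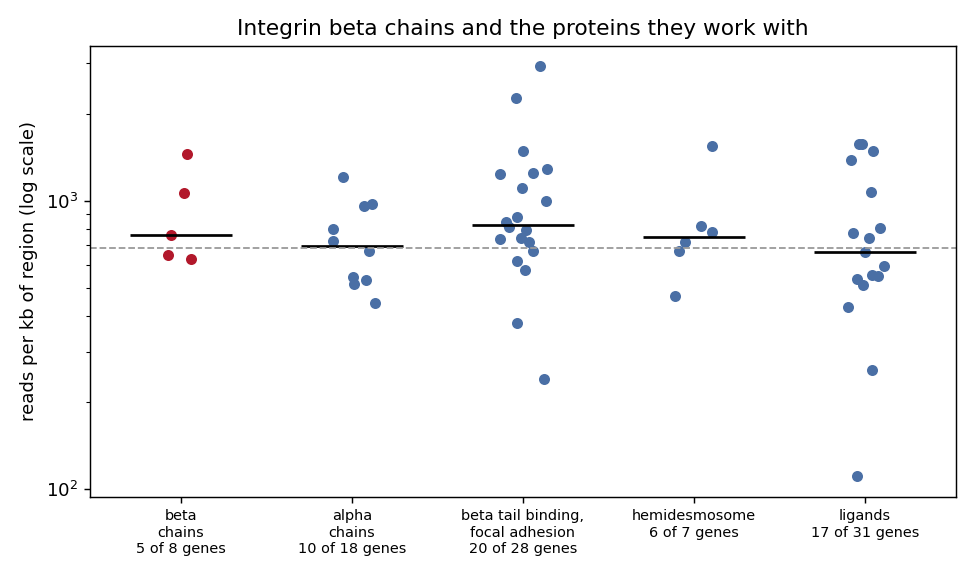
Reads per kb of region on a log axis for each gene with a region, in integrin beta chains (red) and 4 groups of partner genes (blue), with a bar at the median of the group and a dashed line at 683, the median of all listed genes. The beta chains run from 626 to 1452, within the range of the tail-binding and ligand genes.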

How the data were processed

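The regions examined come from a table deposited for a Runx1b DamID study of mouse haemogenic endothelium. Per the labels' protocols, DNA was prepared by DamID and sequenced as barcoded SOLiD fragment libraries. Reads were placed on mm9, as the submitters' processing notes record. Not given in the sources used here are the aligner, the region caller, the comparison with Dam and the assignment of regions to genes.

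The authors deposited 1 read count per gene and, as a signal, the reads per kb of region. In all 5867 genes the deposited signal equalled the count divided by the summed region length, both end positions counted, within 0.006. The table has 0 columns of values per library, so the planned edgeR test between the lines was not run. Coordinates are as deposited.

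Members were found by symbol. Each was set against the other genes of its chromosome by rank and by ratio to their median. Genes were matched to RefSeq (GRCm38.p6) by symbol or unique synonym on the same chromosome. That table gave names, chromosomes, gene order, length classes and the protein-coding genes over which shares were taken. Named were all members, genes next to them by region or by reads per kb, and up to 4 genes with the most reads per kb of each partner list, of which 2 are not reported here. The members and lists were chosen with earlier results of these data known. Parsing and intervals were tested on simulated counts drawn from a Poisson distribution, so that test does not cover PCR copies or replicate spread. Ranking was tested on a short made-up list. Python 3.11.15, pandas 2.3.3 and scipy 1.17.1 were used.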

Additional observations from a re-analysis of the deposited data

How the results depend on the processing

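The number of beta chains with a region stayed at 5 when regions assigned to another gene were left out (18.0% of protein-coding genes). It was 2 when 2 or more regions were required (6.40%) and 3 when reads per kb above the table's median were required (10.5%). The share of protein-coding genes with a region was 30.5% as the mean over the members' length classes and 22.1% on the members' chromosomes. The number of members above their chromosome's median stayed between 2 and 3 under 7 other settings, but the members differed. Against all genes of the table the ratio was 1.11 for Itgb3 and 0.949 for Itgb5, on the other side of the median. By read count in place of reads per kb it was 0.699 for Itgb1, 0.724 for Itgb4 and 3.11 for Itgb6, so the order depends on whether length is divided out. Against genes with 4 or more regions, chosen after the data were seen, it was 0.852 for Itgb5. Limiting the comparison to protein-coding genes, to genes with 1 region or to genes without shared regions, and measuring length as end minus start, reversed 0 ratios. No paired analysis was possible because the table gives 1 value per gene and none per library, and for the same reason no replicate could be left out.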
